A study of Mus musculus with 38 samples.

Results

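Mouse embryonic stem cells were exposed to BRM014 for 24 h and their RNA was set against that of cells given the vehicle DMSO for the same time. The comparison uses 8 of the 38 libraries of the series: BRM014 replicates 1 to 4 and DMSO replicates 1 to 4, all from wild-type (wt) cells. They were chosen by their labels, and replicates 1 and 2 of each group belong to batch 2450 and replicates 3 and 4 to batch 2457. All were of 129S6/SvEvTac background, grown on gelatin with serum and LIF, the cytokine that holds such cells in self-renewal. BRM014 was given at 10 uM and DMSO is the solvent of the compound stock. Further libraries used below are 2 of an inactive analog at 10 uM for 24 h, those of shorter BRM014 treatments and washouts in batch 2450, and those of the lines Ino80ko and Snf2hko with BRM014 or DMSO for 24 h in batch 2457. The labels name the lines by the ATPase of another remodeller and do not say whether a line is a single clone. RNA was made into stranded total RNA libraries. The replicates are termed biological, with no word on separate cultures or days, so p-values measure the spread between these samples.

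SWI/SNF (BAF) complexes use the ATPase BRG1, encoded by Smarca4, or its relative BRM, encoded by Smarca2, to slide and evict nucleosomes. They keep enhancers and promoters open to transcription factors, and in embryonic stem cells a BRG1-based form, called esBAF, works beside OCT4, SOX2 and STAT3. BRM014 inhibits the ATPase of both proteins without removing the complex from the cell. The comparison asks which transcripts depend on that activity.

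Library totals ran from 19971280 to 40815620 counts for BRM014 and from 19349695 to 43007055 counts for DMSO. Levels are in CPM, a count relative to the library total after TMM scaling, with mean ± SD over 4 libraries. Differences are log2 of BRM014 over DMSO ± SE from an edgeR quasi-likelihood fit with batch as a term. A gene was called at a Benjamini-Hochberg adjusted p under 0.05 over all 11787 genes tested. Embryonic stem cell markers summed to 7820 to 8130 CPM in BRM014 libraries and 7090 to 7540 CPM in DMSO libraries, and 9 of 10 were tested. Fut4 was listed at 0, as were Smarca4, Arid1a and Sox2, and nothing can be said of their expression. In bulk RNA, fewer cells of a type and less RNA per cell cannot be told apart.

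Under TMM scaling about as many genes rose as fell. The scaling sets the centre of the changes, so this balance depends on it and cannot show a shift of all RNA. Upper-quartile scaling gave 2613 genes higher and 3259 lower. With TMM the test called 5842 genes (49.6%), of which 2923 (24.8%) were higher and 2919 (24.8%) lower with BRM014, around a median log2 difference of 0.0033. Most of the calls were small, since at adjusted p under 0.05 and at least 2-fold 593 genes (5.03%) were higher and 947 (8.03%) lower. The larger the change, the more falls there were beside rises: 114 genes rose and 304 fell at least 4-fold, and 30 rose and 85 fell at least 8-fold. The 593 genes took 2.30% to 2.60% of counts in BRM014 libraries and 0.952% to 1.05% in DMSO libraries. The 947 genes took 0.659% to 0.687% with BRM014 and 1.76% to 2.01% with DMSO.

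Large changes sat mainly in genes of low level. Of 2416 genes with a mean log2 CPM under 1, 11.5% rose and 19.2% fell at least 2-fold. Of 1982 genes at 7 or above, 1.51% rose and 1.11% fell that far. The median absolute log2 difference was 0.62 in the lowest of these classes and 0.15 in the highest. Counting error is also larger in low genes. Long intergenic RNAs (lincRNAs) moved more often than protein-coding genes in both directions: 10.2% of 295 rose and 19% fell at least 2-fold, against 4.87% and 7.82% of 10687 protein-coding genes. The lincRNAs were not read by level, and their shares lie near those of all genes with a mean log2 CPM under 1. The part of level in this contrast was not tested.

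**Figure D1:**
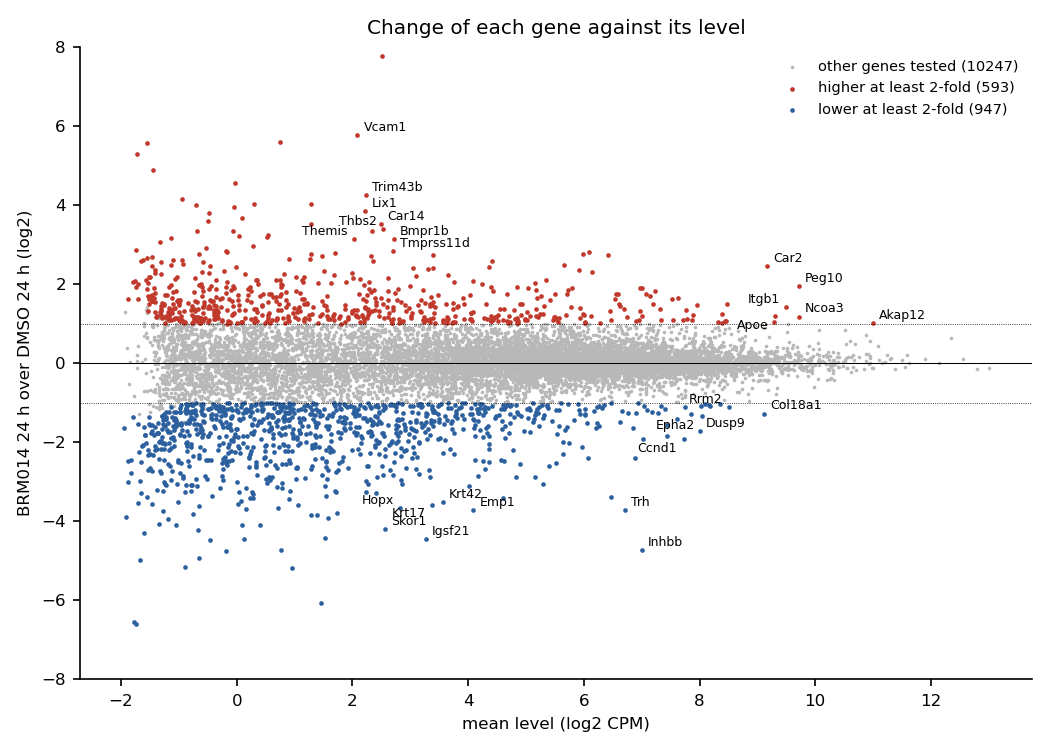
Change of each of the 11787 genes tested (log2 of BRM014 24 h over DMSO 24 h, vertical axis) against its mean level (log2 CPM, horizontal axis). Red points are the 593 genes higher and blue points the 947 genes lower at least 2-fold with adjusted p under 0.05, dotted lines mark 2-fold, and names are those of the genes with the leading changes. The cloud narrows as the level grows, and the topmost point without a name is a gene to which the deposited table gives no symbol.

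The 8 leading rises, ranked by fold among genes with a mean log2 CPM of at least 2 whose libraries separate in each batch, were mostly of genes close to silent in vehicle-treated cells. Over all genes tested, 25.1% had every BRM014 library above and 25% every one below the DMSO libraries of its batch. Vcam1, on GRCm38 at chr3:116109949-116129688 on the minus strand, encodes an adhesion molecule of inflamed endothelium. Vcam1 stood at 8.02, 7.72, 9.53 and 9.14 CPM with BRM014 and at 0.272, 0.156, 0.0783 and 0.165 CPM with DMSO. The groups were far apart in both batches, with a log2 difference of 5.77 ± 0.25 (edgeR adjusted p = 1.43e-11). Exons of Vcam1 overlap the predicted gene Gm43109 on the other strand, and since strand use in counting is not stated, reads of the pair cannot be told apart.

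Bmpr1b, a type I receptor for bone morphogenetic proteins, stood at 10.5, 12.2, 12.8 and 13.1 CPM with BRM014 and at 1.13, 0.934, 1.36 and 1.96 CPM with DMSO (3.14 ± 0.16, edgeR adjusted p = 1.44e-10). Car14, a membrane carbonic anhydrase, held 9.9 to 12.8 CPM with BRM014 and 0.311 to 1.27 CPM with DMSO (3.52 ± 0.21), and its exons overlap Aph1a on the other strand. Lix1, a limb-expressed gene, had 7.57 to 10.5 CPM against 0.339 to 1.14 CPM (3.85 ± 0.25). These genes kept every BRM014 library above every DMSO library. Themis, a signalling protein of developing thymocytes, rose by 3.13 ± 0.19 and Tmprss11d, an airway transmembrane protease, by 2.84 ± 0.14. Exons of Themis also overlap a transcript on the other strand.

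Trim43b and Thbs2 rose in both batches but unequally. Trim43b, of a family of preimplantation tripartite-motif genes with near-identical copies, had 14.2 and 11.6 CPM with BRM014 in batch 2450 and 5.97 and 6.89 CPM in batch 2457, against 0.259 to 0.548 CPM with DMSO (4.25 ± 0.27). Its counts are uncertain for that reason. Thbs2, the matrix protein thrombospondin 2, had 12.6, 14.2, 8.96 and 8.91 CPM with BRM014 and 0.272, 0.519, 1.93 and 1.06 CPM with DMSO (3.39 ± 0.43, edgeR adjusted p = 0.00031).

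The 8 leading falls were of genes with a clear level in vehicle-treated cells. Inhbb, which encodes the beta B subunit of activin and inhibin, stood at 7.92, 9.19, 10.2 and 9.94 CPM with BRM014 and at 273, 250, 245 and 230 CPM with DMSO. The 4 BRM014 libraries lay close together and far below the vehicle (-4.73 ± 0.09, edgeR adjusted p = 1.87e-15). Trh, the thyrotropin-releasing hormone precursor, had 11.9, 10.5, 17.9 and 19.9 CPM with BRM014 and 212, 181, 211 and 179 CPM with DMSO (-3.72 ± 0.16, edgeR adjusted p = 3.16e-08).

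Igsf21, a synaptic adhesion protein, had 1.25, 0.914, 0.64 and 0.516 CPM with BRM014 and 24.9, 23.0, 13.1 and 13.3 CPM with DMSO. Its level differed between batches in both groups while the log2 difference was -4.47 in batch 2450 and -4.46 in batch 2457. Skor1, a transcriptional corepressor of the SKI family, had 0.422 to 0.813 CPM with BRM014 and 8.97 to 11.5 CPM with DMSO (-4.20 ± 0.20). Emp1, an epithelial membrane protein, had 2.15 to 2.58 CPM against 24 to 42.5 CPM (-3.73 ± 0.14). Hopx, a small homeodomain protein without DNA binding, had 0.847 to 1.2 CPM against 11.6 to 13.6 CPM (-3.67 ± 0.15), with exons that overlap Hopxos on the other strand. Krt17 and Krt42, type I keratins with close relatives in their cluster, fell by 3.59 ± 0.17 and 3.53 ± 0.14 on the log2 scale.

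**Figure D2:**
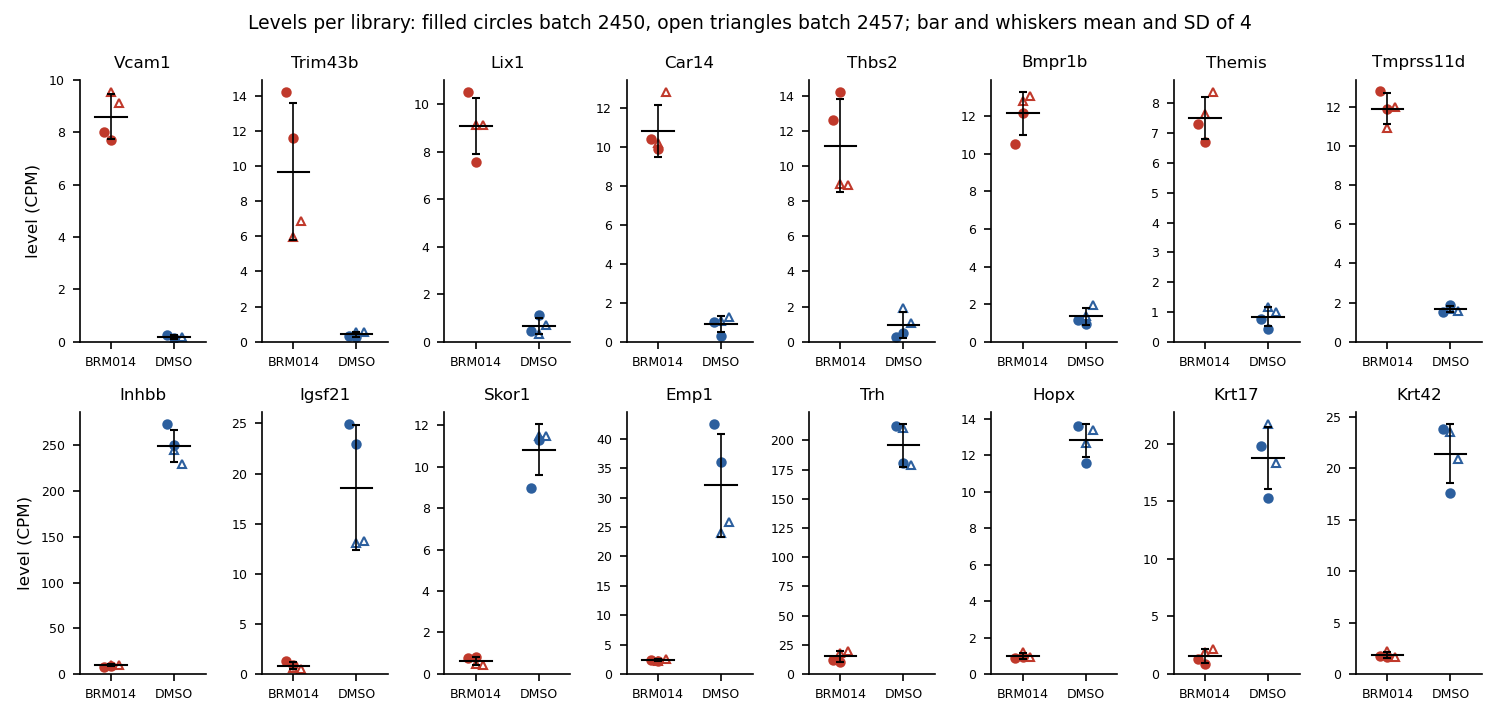
Level in each library (CPM, vertical axis from 0) of the 8 leading rises and 8 leading falls, BRM014 24 h left and DMSO 24 h right, with circles for batch 2450, triangles for batch 2457 and bars for mean ± SD of 4 libraries. No group overlaps the other, and Trim43b, Thbs2, Igsf21 and Emp1 show a step between the batches within a group.

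Abundant genes moved by less. By difference of mean CPM, the leading rises of at least 2-fold were Akap12, Peg10, Car2, Itgb1, Ncoa3 and Apoe. Akap12, a scaffold for protein kinase A, averaged 2760 ± 168 CPM with BRM014 and 1380 ± 189 CPM with DMSO (1.01 ± 0.07). Itgb1, the beta 1 integrin that pairs with most matrix-binding alpha chains, had 1150, 1130, 990 and 1000 CPM with BRM014 and 375, 438, 393 and 398 CPM with DMSO (1.41 ± 0.06, edgeR adjusted p = 2.64e-11). Both groups were tight and well apart.

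Car2, a cytosolic carbonic anhydrase, had 1060, 995, 947 and 946 CPM with BRM014 and 151, 147, 225 and 215 CPM with DMSO (2.45 ± 0.12). Peg10, an imprinted retrotransposon-derived gene of placenta, averaged 1360 ± 297 CPM against 348 ± 71.8 CPM (1.94 ± 0.22, edgeR adjusted p = 0.000569). Ncoa3, a nuclear receptor coactivator that works with ESRRB in these cells, rose by 1.18 ± 0.07, and its exons overlap Sulf2 on the other strand. Apoe, a lipid carrier, rose by 1.19 ± 0.16.

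Among abundant genes the falls were led by Col18a1, Dusp9, Rrm2, Ccnd1, Inhbb and Epha2. Col18a1, a basement membrane collagen, averaged 326 ± 20.9 CPM with BRM014 and 794 ± 57.3 CPM with DMSO (-1.28 ± 0.06). Dusp9, an X-linked phosphatase of ERK, had 120, 118, 126 and 119 CPM with BRM014 and 433, 421, 398 and 343 CPM with DMSO (-1.72 ± 0.07, edgeR adjusted p = 1.05e-11). Ccnd1, the G1 cyclin D1, had 72.7, 73.7, 107 and 106 CPM against 301, 325, 373 and 356 CPM (-1.93 ± 0.07), and overlaps LTO1 on the other strand. Rrm2, the small subunit of ribonucleotide reductase, fell by 1.12 ± 0.06 and Epha2, an ephrin receptor of pluripotent cells, by 1.35 ± 0.07.

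Promoters of the genes that moved at least 2-fold held fewer CpG dinucleotides than those of all genes tested. RefSeq (GRCm38.p6) gave windows from 250 bases before to 50 after a start for 401 of 539 genes higher with a symbol, 625 of 879 lower and 8647 of 10955 tested. The median ratio of observed to expected CpG was 0.552 over 509 windows of rises, 0.435 over 798 windows of falls and 0.725 over all 10953 windows. Low genes differ in this respect as a class, so the same was read by level. At a mean log2 CPM of 3 or more the medians were 0.658, 0.552 and 0.781, and under 3 they were 0.471, 0.397 and 0.514.

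The 4 windows below show the range, a CpG-rich and a CpG-poor start among the falls (Inhbb, Krt42) and among the rises (Coch, Fgfbp1). Capitals mark 3 motifs read on both strands, each also as its reverse complement. They are TATAAA, the core of the TATA box, the letters GGGCGG of the GC box that SP1 is known to bind, and the letters CCAAT of the box that NF-Y is known to bind. No 2 marked motifs overlap. Inhbb is at chr1:119422199-119422498 on the minus strand, Krt42 at chr11:100269902-100270201 on the minus strand, Coch at chr12:51593091-51593390 on the plus strand and Fgfbp1 at chr5:43981750-43982049 on the minus strand.
Inhbb: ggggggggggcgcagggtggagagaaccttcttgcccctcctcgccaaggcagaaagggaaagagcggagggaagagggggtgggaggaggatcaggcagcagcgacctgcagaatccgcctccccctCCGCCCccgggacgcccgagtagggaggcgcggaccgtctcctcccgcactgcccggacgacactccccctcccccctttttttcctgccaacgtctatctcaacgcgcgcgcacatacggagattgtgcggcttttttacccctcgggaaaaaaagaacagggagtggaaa
Krt42: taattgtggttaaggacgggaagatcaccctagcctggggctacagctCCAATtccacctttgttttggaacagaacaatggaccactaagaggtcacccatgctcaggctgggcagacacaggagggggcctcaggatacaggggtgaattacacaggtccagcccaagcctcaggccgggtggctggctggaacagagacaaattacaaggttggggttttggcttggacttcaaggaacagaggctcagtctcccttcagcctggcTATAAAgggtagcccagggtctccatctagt
Coch: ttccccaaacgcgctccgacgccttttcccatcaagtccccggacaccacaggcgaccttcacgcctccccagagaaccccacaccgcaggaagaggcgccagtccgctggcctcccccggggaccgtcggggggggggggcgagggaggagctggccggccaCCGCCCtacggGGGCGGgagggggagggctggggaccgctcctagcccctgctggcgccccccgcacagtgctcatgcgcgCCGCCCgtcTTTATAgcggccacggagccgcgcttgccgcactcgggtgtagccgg
Fgfbp1: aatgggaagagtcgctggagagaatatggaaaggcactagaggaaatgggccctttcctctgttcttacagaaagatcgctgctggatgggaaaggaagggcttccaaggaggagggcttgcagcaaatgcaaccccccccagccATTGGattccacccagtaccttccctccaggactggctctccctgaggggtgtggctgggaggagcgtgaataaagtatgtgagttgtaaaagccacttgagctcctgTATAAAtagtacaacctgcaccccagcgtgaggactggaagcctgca
The ratio of observed to expected CpG was 0.741 for Inhbb, 0.0924 for Krt42, 0.789 for Coch and 0.19 for Fgfbp1. TATAAA was present in 10.6% of windows of rises, 9.9% of falls, 7.23% of genes tested and 13.6% of all 32851 RefSeq windows. GGGCGG was present in 55.8%, 49.0%, 61.4% and 35.7% of the same sets, and CCAAT in 38.1%, 34.8%, 38.5% and 37.4%. A match is a description of letters and not a site or a cause.

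Ligands and inhibitors of the Activin and Nodal pathway, which signals through SMAD2 and SMAD3 and is active in cultured embryonic stem cells, moved both ways within each class. Of 13 members tested 4 were higher and 6 lower, with a median of -0.07, against 24.8% higher and 24.8% lower over all genes. Beside Inhbb, the targets and feedback inhibitors Lefty1 and Lefty2 fell. Lefty1 had 11.6, 14.4, 11.8 and 9.66 CPM with BRM014 and 69, 57, 86.2 and 78.6 CPM with DMSO (-2.61 ± 0.14, edgeR adjusted p = 4.76e-09), and Lefty2 fell by 2.56 ± 0.09. Fst encodes follistatin, which binds activin and blocks it. Fst had 89, 94.2, 109 and 116 CPM with BRM014 and 20.9, 19.5, 19.6 and 20.4 CPM with DMSO (2.35 ± 0.08, edgeR adjusted p = 1.75e-12), with a predicted gene on the other strand. Nodal, chosen after its values were seen, rose by 0.76 ± 0.07, with 172, 171, 178 and 172 CPM against 111, 108, 104 and 89.6 CPM.

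In the BMP pathway 7 of 13 members were higher and 3 lower (median 0.39). The ligand Bmp4 had 21.9, 21.5, 21.9 and 18.9 CPM with BRM014 and 69.3, 67.4, 77.1 and 77.4 CPM with DMSO (-1.79 ± 0.08, edgeR adjusted p = 2.06e-11), while its receptor Bmpr1b rose as given above. Exons of Bmp4 overlap Gm15217 on the other strand. Id2, an inhibitor of helix-loop-helix factors and a classical BMP target, had 134 to 156 CPM with BRM014 and 34.6 to 57.5 CPM with DMSO (1.74 ± 0.09). Id4 of the same family fell by 1.22 ± 0.21 from a low level of 2.95 to 4.78 CPM in vehicle-treated cells.

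In the FGF and ERK pathway the ligand genes Fgf4, Fgf15 and Fgf17 fell, and the ligand gene Fgf8, named after its values were seen and low at 0.427 CPM with BRM014 and 0.195 CPM with DMSO on average, was higher (1.33 ± 0.52). Of 16 members tested 8 were higher and 4 lower (median 0.23). Fgf4, the autocrine ligand that primes these cells to differentiate, had 121, 125, 145 and 149 CPM with BRM014 and 348, 379, 292 and 313 CPM with DMSO (-1.30 ± 0.09). Fgf15 fell by 2.48 ± 0.11 and Fgf17 by 1.22 ± 0.08. Fgfbp1, a carrier that frees FGFs from matrix, had 121, 110, 105 and 114 CPM with BRM014 and 16.8, 13.8, 19.2 and 16.6 CPM with DMSO (2.76 ± 0.09, edgeR adjusted p = 1.33e-12). Among the phosphatases that act on ERK, Dusp6, chosen after its values were seen, rose by 1.13 ± 0.07 and Dusp9 fell as given above. Over the whole Dusp family 6 of 19 were higher and 3 lower (median 0.21).

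Wnt and Notch genes were lower on the whole. Of 14 Wnt pathway members 10 were lower and 1 higher (median -0.88). The ligand Wnt7b had 1.74 to 3.09 CPM with BRM014 and 16.3 to 19.4 CPM with DMSO (-2.87 ± 0.15), Wnt4 fell by 2.44 ± 0.21, and Axin2, a target that feeds back on the pathway, had 2.2 to 3.91 CPM against 11.1 to 14.3 CPM (-1.97 ± 0.14). Wnt7b and Axin2 overlap other transcripts on the opposite strand. Of 8 Notch pathway members tested 7 were lower and 0 higher (median -1.0). The ligand Jag1 had 7.77, 9.45, 8.71 and 10.4 CPM with BRM014 and 28.3, 28.3, 33.1 and 34.9 CPM with DMSO (-1.78 ± 0.10), the receptor Notch4 fell by 1.64 ± 0.18, and the target repressors Hes1 and Hey1 fell by 1.11 ± 0.11 and 1.16 ± 0.20. Notch1 and Notch2 were listed at 0, so the main receptors were not read.

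Hippo and TEAD genes were mainly higher. Of 13 tested 10 were higher and 1 lower (median 0.31). Vgll3, a cofactor of TEAD, had 34.7, 34.7, 27.3 and 27.7 CPM with BRM014 and 5.71, 6.54, 8.84 and 9.83 CPM with DMSO (1.99 ± 0.16). The coactivator gene Wwtr1 (TAZ) rose by 0.70 ± 0.07 and the target Ccn2 by 0.72 ± 0.08, whereas the factor Tead4 fell by 1.09 ± 0.10. In the retinoic acid pathway 3 of 10 were higher and 5 lower (median -0.38). Crabp1, which binds retinoic acid in the cytoplasm, had 2.23 to 2.95 CPM with BRM014 and 11.2 to 15.1 CPM with DMSO (-2.40 ± 0.14). The enzymes that make retinoic acid rose, Aldh1a2 by 1.47 ± 0.11 and Rdh10 by 0.78 ± 0.10. Of 9 LIF and STAT3 genes 3 were higher (33.3%) and 4 lower (44.4%), beside 24.8% each over all genes (median -0.25). Jak2 (1.16 ± 0.10) and the kinase gene Pim1 (0.80 ± 0.09) were higher and the STAT3 target Gbx2 (-1.12 ± 0.07) lower.

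**Figure D3:**
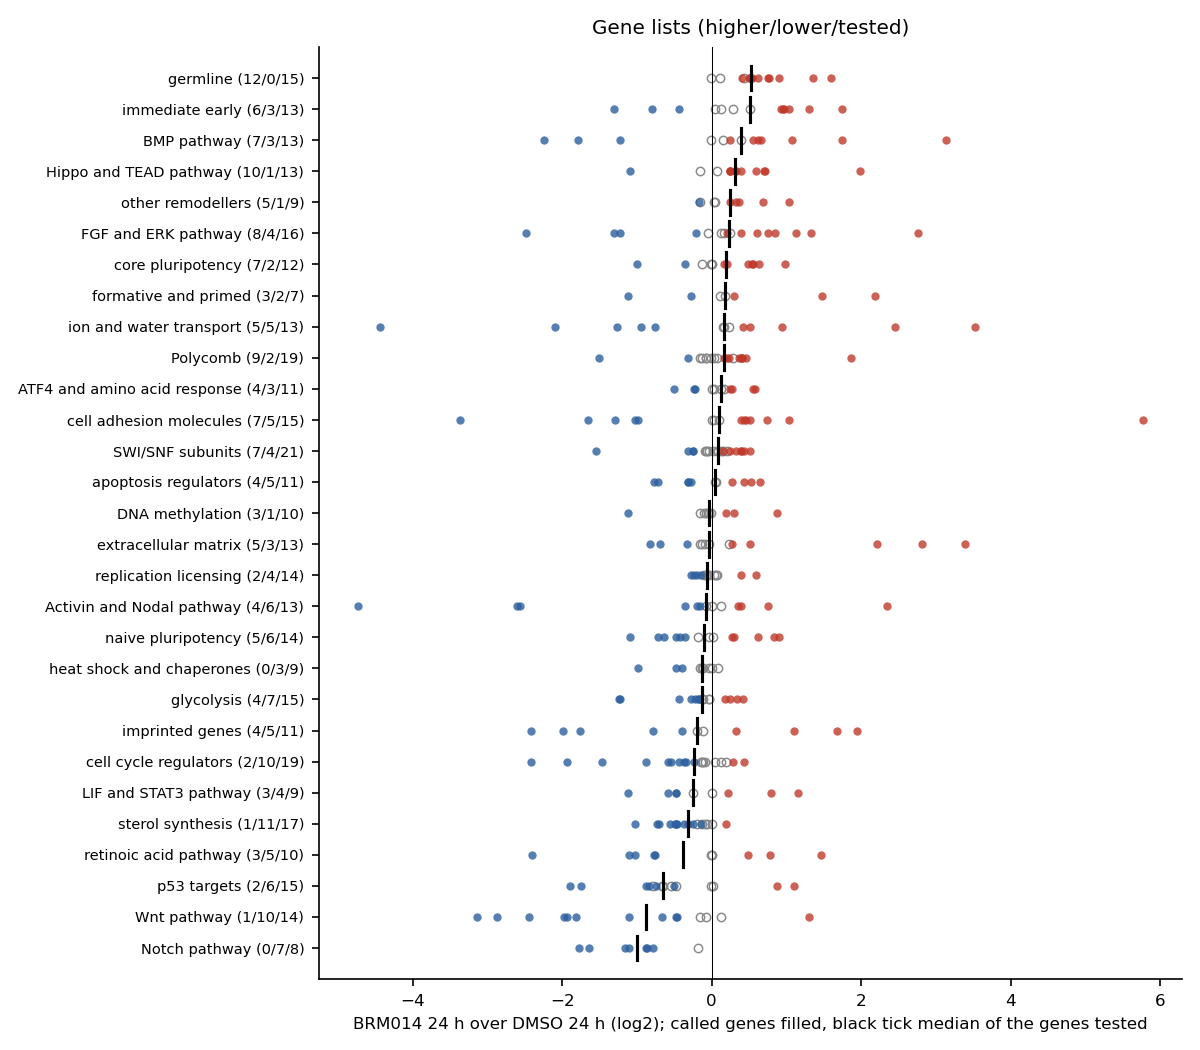
Log2 of BRM014 24 h over DMSO 24 h (horizontal axis) for each tested member of 29 gene lists (rows), with filled points for genes called and a black tick at the median of each list. The numbers beside a name are members higher, lower and tested. Points of the Notch, Wnt and sterol lists lie mostly left of 0, and those of the germline and Hippo lists mostly right of it.

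Pluripotency genes split. Of 12 core genes tested 7 were higher and 2 lower (median 0.19), and of 14 naive genes 5 were higher and 6 lower (median -0.10). Utf1, a chromatin factor of pluripotent cells, had 85.9, 114, 77.4 and 56.2 CPM with BRM014 and 161, 156, 175 and 164 CPM with DMSO (-1.0 ± 0.17). The BRM014 libraries were all lower but spread widely. Dppa2, which activates early zygotic genes, had 255, 249, 265 and 282 CPM with BRM014 and 119, 123, 146 and 148 CPM with DMSO (0.98 ± 0.06), and the corepressor Trim28 rose by 0.64 ± 0.06. In the naive list Tbx3, a T-box factor downstream of LIF, fell by 1.09 ± 0.09 and Tcl1, a cofactor of AKT, by 0.72 ± 0.09, whereas Dppa3 (Stella) rose by 0.90 ± 0.14 and Dppa5a, which has near-identical copies in the genome, by 0.83 ± 0.07. Of 7 formative genes tested 3 were higher and 2 lower (median 0.18). Fgf5, the textbook marker of the formative state, had 3.25 to 4.93 CPM with BRM014 and 0.519 to 1.2 CPM with DMSO (2.19 ± 0.25), and Zic2, a zinc finger factor of the same state, rose by 1.48 ± 0.17. The list also holds Dnmt3a, which fell by 1.12 ± 0.07, and Sall2, named after its values were seen, which fell by 0.27 ± 0.11 with groups that overlap.

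Chromatin regulators moved modestly. Of 21 SWI/SNF subunit genes tested 7 were higher and 4 lower (median 0.08). Smarca2, the gene of the other target ATPase, had 12.8, 14, 9.76 and 10.6 CPM with BRM014 and 11.8, 16, 10.7 and 11.2 CPM with DMSO, and the groups overlapped (-0.08 ± 0.11, edgeR adjusted p = 0.59). Smarcd3, the BAF60C subunit of heart and muscle forms, was the subunit gene with the largest difference, at 5.08, 5.84, 7.25 and 5.81 CPM with BRM014 and 22, 17.3, 17.6 and 14.6 CPM with DMSO (-1.55 ± 0.14), and overlaps Chpf2 on the other strand. Among the 7 rises, Bcl7c rose by 0.51 ± 0.08, Smarcc2 by 0.43 ± 0.08, Arid1b by 0.39 ± 0.07, Phf10 by 0.39 ± 0.06 and Brd9 by 0.33 ± 0.07. Bicral, of the GBAF form, fell by 0.31 ± 0.07, and Smarcd1 and Smarcd2 each by 0.25 ± 0.07.

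Of 9 other remodeller genes tested 5 were higher and 1 lower (median 0.25). Bptf, the reader subunit of the NURF complex, had 900, 910, 819 and 770 CPM with BRM014 and 369, 452, 415 and 419 CPM with DMSO (1.04 ± 0.07, edgeR adjusted p = 3.52e-09), and its ATPase gene Smarca1 rose by 0.69 ± 0.07. Of 19 Polycomb genes 9 were higher and 2 lower (median 0.17). Bmi1, a RING finger component of PRC1, had 57.7, 57.3, 57 and 58.9 CPM with BRM014 and 16.6, 20.1, 12.8 and 15.2 CPM with DMSO (1.86 ± 0.10), and the PRC2 accessory gene Phf19 fell by 1.5 ± 0.13. The de novo methyltransferase gene Dnmt3a had 126 to 157 CPM with BRM014 and 277 to 324 CPM with DMSO (-1.12 ± 0.07), while Dnmt3b rose by 0.30 ± 0.06 and Uhrf2, a reader of modified cytosine, by 0.88 ± 0.06. Over the DNA methylation list 3 of 10 were higher and 1 lower (median -0.04). Dnmt3a overlaps an antisense transcript.

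Most keratin genes were lower with BRM014. Of 14 keratin genes tested 11 were lower and 0 higher (median -1.98), and beside Krt17 and Krt42, Krt19 had 1.34 to 1.79 CPM with BRM014 and 10.3 to 14.2 CPM with DMSO (-2.97 ± 0.16). Keratins are close relatives, so reads may be shared between them. RefSeq held windows for 8 of the 11 genes, with a median CpG ratio of 0.285 over 9 windows, of which 3 had TATAAA. Tgm1, the transglutaminase of the epidermal envelope, had 14.9, 14.3, 16.2 and 16.5 CPM with BRM014 and 156, 150, 184 and 162 CPM with DMSO (-3.39 ± 0.07), with a predicted gene on the other strand. Of 15 serpins (protease inhibitors) 10 were lower and 3 higher (median -1.10), among them Serpinb9b (-2.17 ± 0.15) and Serpinb6c (-1.40 ± 0.15), both of a cluster of near copies.

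Adhesion and matrix genes moved both ways. Of 15 adhesion genes 7 were higher and 5 lower (median 0.10). Cdh5 and Pecam1, adhesion proteins of endothelium that embryonic stem cells also express in part, fell by 3.37 ± 0.34 and 1.29 ± 0.08. Of 13 matrix genes 5 were higher and 3 lower (median -0.04). Coch, a matrix protein known from the inner ear, had 127, 112, 123 and 120 CPM with BRM014 and 15.4, 12.9, 20.6 and 20 CPM with DMSO (2.81 ± 0.10, edgeR adjusted p = 5.78e-12). The fibrillin gene Fbn2 rose by 2.22 ± 0.15 and the basement membrane linker Nid1 fell by 0.82 ± 0.08. Of 24 collagens 10 were lower and 5 higher (median -0.19), with Col6a5 and Col13a1 at -1.85 ± 0.18 and -1.45 ± 0.15, and the laminin gene Lamb2 rose by 1.15 ± 0.07. Among integrins, Itga3, a laminin receptor chain, fell by 1.27 ± 0.09 while Itgb1 rose.

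Transporters showed no common direction. Of 218 solute carriers tested 53 were higher and 55 lower (median 0.01). The nucleoside carrier Slc28a1 fell by 3.10 ± 0.11, the inositol carrier Slc5a11 by 2.81 ± 0.14 and the peptide carrier Slc15a1 by 2.50 ± 0.14. Of 13 ion and water transport genes 5 were higher and 5 lower (median 0.17). Aqp8, an aquaporin, had 0.154 to 0.349 CPM with BRM014 and 2.45 to 9.07 CPM with DMSO (-4.44 ± 0.30), and Aqp3 fell by 1.27 ± 0.10.

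Cell cycle regulators were lower more often than higher. Of 19 tested 10 were lower and 2 higher (median -0.23). Cyclin D2 (Ccnd2) fell by 1.47 ± 0.08 beside cyclin D1, and the inhibitor gene Cdkn1c (p57), which is imprinted, had 33.3, 32.6, 15.4 and 11.3 CPM with BRM014 and 119, 112, 115 and 107 CPM with DMSO (-2.41 ± 0.27). Cdkn1a (p21) fell by 0.88 ± 0.12. Replication licensing genes stayed within a narrow range, with 2 of 14 higher and 4 lower (median -0.06), and Cdc45 rose by 0.59 ± 0.06. Exons of Cdc45 overlap Ufd1 on the other strand. Of 15 p53 targets 6 were lower and 2 higher (median -0.65). For several of them the fall was seen mainly in batch 2450. The log2 changes in batches 2450 and 2457 were -1.52 and -0.08 for Btg2, -1.44 and 0.13 for Plk2 and -1.25 and -0.08 for Trp53inp1. They were -1.14 and 0.04 for Phlda3, -1.02 and 0.06 for Ccng1, -1.28 and -0.22 for Eda2r and -0.89 and -0.1 for Mdm2. Ptprv, Trp73, Cdkn1a and Zmat3 fell in both batches, Pmaip1 and Bbc3 rose in both, and Aen and Plk3 changed little in either. Ptprv had 3.46 to 5.43 CPM with BRM014 and 8.22 to 24.4 CPM with DMSO (-1.75 ± 0.17), Trp73 fell by 1.90 ± 0.36, and the death gene Pmaip1 (NOXA) had 319, 333, 252 and 251 CPM against 146, 185, 103 and 116 CPM (1.10 ± 0.08). Of 11 apoptosis regulators 4 were higher and 5 lower (median 0.04), with Bcl2l1, which protects cells, at 0.53 ± 0.08 and the death gene Bcl2l11 (BIM) at -0.77 ± 0.08.

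Germline genes were higher: of 15 tested 12 rose and 0 fell (median 0.53). Mael, a factor of the piRNA pathway, had 66.8, 67.5, 60.9 and 64.7 CPM with BRM014 and 21.3, 23.4, 21.4 and 19.9 CPM with DMSO (1.60 ± 0.07, edgeR adjusted p = 2.75e-11). Taf7l, a TFIID subunit of germ cells, rose by 1.36 ± 0.11, the kinase-like gene Stk31 by 0.90 ± 0.08 and the RNA helicase Ddx4 by 0.77 ± 0.07. Imprinted genes went both ways, with 4 of 11 higher and 5 lower (median -0.19). Sgce, the neighbour of Peg10 in the same imprinted cluster, had 17.6, 16.2, 13.5 and 16.5 CPM with BRM014 and 5.44, 7.42, 3.63 and 4.12 CPM with DMSO (1.68 ± 0.14), and Nnat fell by 1.99 ± 0.17.

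Sterol synthesis genes fell by small amounts. Of 17 tested 11 were lower and 1 higher (median -0.32), with the SREBP regulator Insig1 at -0.73 ± 0.07 and the isomerase Idi1 at -0.71 ± 0.07. In glycolysis 7 of 15 were lower and 4 higher (median -0.13). The phosphofructokinase gene Pfkp had 82.8 to 95.1 CPM with BRM014 and 190 to 216 CPM with DMSO (-1.24 ± 0.06), the muscle enolase Eno3 fell by 1.23 ± 0.10 and Ldha by 0.43 ± 0.06, while Pdk1, a brake on pyruvate entry to mitochondria, rose by 0.42 ± 0.06. Pfkp overlaps Pitrm1 on the other strand.

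Of 13 immediate early genes 6 were higher and 3 lower (median 0.51). Atf3, a stress-induced bZIP factor, had 55.8, 61.6, 81 and 85.5 CPM with BRM014 and 21.2, 24, 19.7 and 20.1 CPM with DMSO (1.74 ± 0.12), and Fosl2, Fos and Klf6 rose by 1.03 ± 0.11, 0.97 ± 0.13 and 0.95 ± 0.06. Of 9 heat shock and chaperone genes 3 were lower and 0 higher (median -0.13), led by Hspb1 at -0.98 ± 0.08. In the ATF4 and amino acid response 4 of 11 were higher (36.4%) and 3 lower (27.3%), beside 24.8% each over all genes (median 0.12). Of 39 complex I genes 4 were higher and 4 lower (10.3% each), and of 44 ribosomal protein genes 8 were higher (18.2%) and 0 lower (median 0.13). Of 38 proteasome genes 4 were higher (10.5%) and 13 lower (34.2%), beside 24.8% lower over all genes, with the immune subunit gene Psmb10 at -1.07 ± 0.12. Of 300 zinc finger Zfp genes 60 were higher and 110 lower (median -0.09).

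Markers of other cell types were present at low levels in both groups. Muscle markers summed to 33.9 to 43.9 CPM with BRM014 and 100 to 141 CPM with DMSO, with 5 of 7 tested lower and 1 higher. Much of that sum came from Mymx, a membrane fusion peptide of myoblasts, at 5.18, 5.54, 3.2 and 3.24 CPM with BRM014 and 52.6, 47.6, 38.9 and 40.1 CPM with DMSO (-3.42 ± 0.11), and from the filament gene Des (-2.46 ± 0.12), both chosen after their values were seen. Epidermis markers summed to 160 to 189 CPM against 292 to 326 CPM (4 of 7 lower, 2 higher), with Trp63 at 0. This list holds Tgm1, Krt17 and Krt42, which fell. Dsp and Evpl, named after their values were seen, were the 2 higher. Dsp had 149, 141, 133 and 121 CPM with BRM014 and 83.1, 92.3, 74.9 and 70.6 CPM with DMSO. Evpl had 12.5 to 21.3 CPM against 9.47 to 13.8 CPM. Endothelium markers summed to 77.7 to 88.0 CPM against 132 to 160 CPM (5 of 8 lower, 1 higher), with Emcn and Eng at 0, and this list holds Vcam1, Cdh5 and Pecam1. Fibroblast markers summed to 13.7 to 18.0 CPM against 22.2 to 29.4 CPM (3 of 4 lower, 0 higher), with Col1a2 and Col3a1 at 0.

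Primitive endoderm markers overlapped between groups, at 247 to 366 CPM with BRM014 and 213 to 472 CPM with DMSO (3 of 7 higher, 2 lower). Within that list the factors Sox17 and Gata6 rose by 1.10 ± 0.12 and 0.72 ± 0.11, and the scavenger receptor Cubn, at 75.3, 77.4, 50.1 and 42.1 CPM with BRM014 and 134, 211, 65.5 and 69.2 CPM with DMSO, fell by 0.86 ± 0.18. The factor Sox7 was lower, at 6.57, 7.01, 5.87 and 6.38 CPM with BRM014 and 16.4, 21.6, 12.7 and 13.5 CPM with DMSO. The factor Foxa2 stood at 10.7 to 17.3 CPM against 6.03 to 9.43 CPM, and Gata4 overlapped at 71.0 to 92.6 CPM against 51.2 to 85.1 CPM. These members were chosen after their values were seen. Trophoblast markers summed to 47.0 to 57.3 CPM against 71.6 to 89.2 CPM (2 of 6 higher, 3 lower), and their members, also named after their values were seen, went both ways. Hand1 rose by 2.96 ± 0.33 at levels of 1.08 to 3.45 CPM with BRM014. Tfap2c stood at 33.8 to 47.4 CPM with BRM014 and 57.2 to 74.7 CPM with DMSO, Ascl2 at 0.598 to 0.965 CPM against 4.31 to 6.57 CPM, and Krt7 at 0.563 to 1.57 CPM against 2.45 to 3.37 CPM. Neural ectoderm markers summed to 47.0 to 48.4 CPM against 61.1 to 78.3 CPM (2 of 3 higher, 1 lower), with Sox1, Tubb3 and Map2 at 0. The lower sum came from Nes, at 28.5 to 31.1 CPM with BRM014 and 52.4 to 63.9 CPM with DMSO. Pax6 (14.9 to 17.2 CPM against 7.27 to 13.7 CPM) and Zic1 (0.797 to 1.34 CPM against 0.311 to 0.401 CPM) were the 2 higher. These 3 were also named after their values were seen. Mesoderm markers overlapped at 5.92 to 8.02 CPM and 6.11 to 7.94 CPM (1 of 5 higher), and 2-cell-like markers at 7.45 to 16.3 CPM and 10.1 to 17.6 CPM (2 of 5 lower). The part of other cell types in the gene list results was not tested.

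A few low genes were counted in vehicle-treated cells and hardly at all with BRM014. Of all genes, 6 had at most 3 counts over the 4 BRM014 libraries and at least 10 in every DMSO library, and none had the converse; they were chosen by these counts. Abca6, a lipid transporter gene, had 0 counts in each BRM014 library and 12, 11, 13 and 16 with DMSO. That is at least 14.5-fold lower if the BRM014 libraries are set to a floor of 3 counts in all. A higher expected count can also give 0, so the floor is a setting and not a strict limit. Tgtp2, an interferon-inducible GTPase with a near-identical copy, had 0 in each against 11, 10, 13 and 16, at least 13.9-fold lower on the same floor. Dnaic1, a dynein of motile cilia, had 0, 0, 1 and 1 counts against 21, 24, 30 and 29, and Krt13, a keratin of stratified mucosa, had 0, 3, 0 and 0 against 24, 23, 46 and 33. Matn1, a cartilage matrix protein, had 1, 0, 0 and 1 counts against 23, 10, 12 and 11. The folds of Abca6 and Tgtp2 rest on that floor and cover counting error only.

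A difference of the change between batches was called for few genes. Fitted alone, batch 2450 gave 4591 calls of 11424 genes (40.2%) and batch 2457 gave 5188 of 12132 (42.8%). An interaction of treatment and batch was called for 408 of 11787 genes (3.46%), of which 233 were more positive and 175 more negative in batch 2457. That count moved with single libraries: it was 168, 106, 168 and 177 without BRM014 replicate 1, 2, 3 or 4 and 672, 715, 249 and 191 without DMSO replicate 1, 2, 3 or 4. Of the 1540 genes called with at least 2-fold in the joint fit, 1379 could be fitted in each batch, 64 of the 1540 had a called batch difference, and 1040 changed at least 2-fold in both. Genes chosen in 1 batch can be read in the libraries of the other, which share none. Of 558 genes higher at least 2-fold in batch 2457, 449 (80.5%) were called higher and 1 lower in batch 2450, and of 794 lower genes 662 (83.4%) were called lower and 0 higher. The background in batch 2450 was 20.1% in each direction.

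The 8 genes with the smallest adjusted p of the batch difference, 4 in each direction, were read by library. Plk2, a polo-like kinase that p53 induces, had 56.6, 55.5, 72.8 and 71.4 CPM with BRM014 and 145, 159, 64.4 and 69 CPM with DMSO. The DMSO libraries of batch 2450 stood apart, and the change was -1.44 in batch 2450 and 0.13 in batch 2457 (difference 1.56 ± 0.12, edgeR adjusted p = 4.62e-07). The p53 target Btg2 had a batch difference of 1.43 ± 0.13 and the lipid phosphatase gene Inpp5d of 1.19 ± 0.11, with 204, 216, 108 and 104 CPM in DMSO libraries. The adenylate kinase gene Ak1 differed by 1.45 ± 0.14. In the other direction, the kinase gene Pim2 had 37, 40.2, 24.9 and 25.7 CPM with BRM014 and 28.9, 27.9, 50.3 and 44 CPM with DMSO (difference -1.33 ± 0.14), followed by Cdkn1c (-1.21 ± 0.15), the chromatin reader gene Brpf3 (-1.28 ± 0.16) and the RNA-binding protein gene Hnrnpd (-0.98 ± 0.13).

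**Figure D4:**
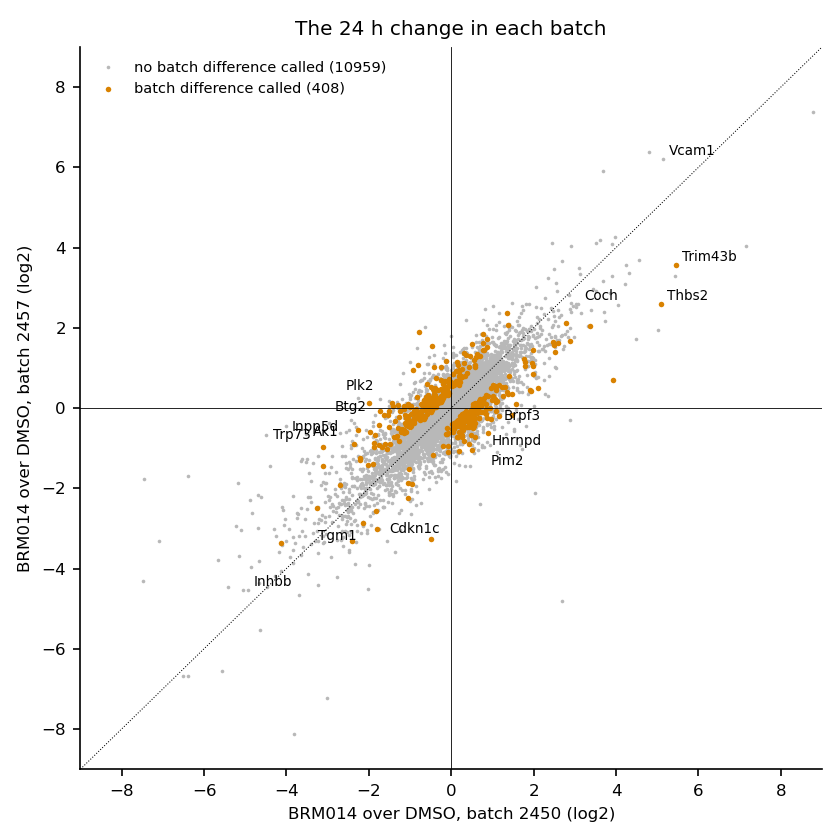
Log2 of BRM014 24 h over DMSO 24 h in batch 2457 (vertical axis) against that in batch 2450 (horizontal axis) for 11367 genes that could be fitted in both, with orange points for the 408 genes whose difference between batches was called and a dotted line of equal change. Most genes follow the line, and Plk2, Pim2, Brpf3 and Hnrnpd lie on opposite sides of 0.

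The inactive analog, given at the same 10 uM for 24 h in batch 2450, shows how far BRM014 goes beyond a compound that the labels call inactive. In 1 fit of the 26 libraries of that batch, BRM014 differed from the analog in 4436 of 12517 genes (35.4%), with 2168 (17.3%) higher and 2268 (18.1%) lower. All 16 leading genes were called against the analog with the same sign as against DMSO, and both comparisons use the BRM014 libraries of batch 2450. The analog itself was called against DMSO, in the direction of BRM014, for 9 of the 16: Trim43b, Car14, Thbs2, Tmprss11d, Igsf21, Skor1, Emp1, Trh and Krt42. Of the genes that BRM014 moved at least 2-fold, the analog was called higher for 134 of 581 rises (23.1%) and lower for 385 of 946 falls (40.7%), in a comparison that shares the DMSO libraries of batch 2450. Over all 12517 genes the analog was called against DMSO for 18.4%, both directions together. Inhbb had 7.92 and 9.19 CPM with BRM014 and 246 and 231 CPM with the analog (-4.80 ± 0.09), a size like that against DMSO. Coch had 127 and 112 CPM with BRM014 and 21.0 and 22.1 CPM with the analog (2.47 ± 0.11), and Fgfbp1 121 and 110 CPM against 16.7 and 17.0 CPM (2.78 ± 0.09).

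For several genes, Coch among them, the analog lay between BRM014 and DMSO. Coch was higher with the analog than with DMSO by 0.60 on the log2 scale (edgeR adjusted p = 0.000822). Lefty1 had 11.6 and 14.4 CPM with BRM014 and 27.1 and 25.5 CPM with the analog (-1.02, adjusted p = 0.00545), and the analog was itself below DMSO (-1.26, adjusted p = 0.00107). Trim43b differed from the analog by 2.99 and the analog from DMSO by 2.46. For 2 p53 targets the analog differed from DMSO and not, by the test, from BRM014: Ptprv differed between BRM014 and analog by -0.13 (adjusted p = 0.585) while the analog was below DMSO by 2.07 on the log2 scale, and Cdkn1a by -0.02 (adjusted p = 0.92) beside -1.02 of the analog against DMSO. A p that misses the threshold does not show that the compounds act alike, and the SE of these differences was 0.17 for Ptprv and 0.15 for Cdkn1a.

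Genes chosen in batch 2457 carry no library of the analog comparison. Of 586 genes higher at least 2-fold there, 409 (69.8%) were called higher and 2 lower against the analog in batch 2450, with a median of 0.96. Of 850 lower genes 561 (66.0%) were called lower and 2 higher, with a median of -1.08. The analog itself differed from DMSO in 2306 of 12517 genes (18.4%).

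The lines Ino80ko and Snf2hko received the same treatment in batch 2457. Genes chosen in wild type of batch 2450 share no library with them. Of 573 such genes higher at least 2-fold, 414 (72.3%) were called higher in Ino80ko and 407 (71.0%) in Snf2hko, beside 449 of 565 (79.5%) in wild type of batch 2457. Of 886 lower genes 753 (85.0%) were lower in Ino80ko and 734 (82.8%) in Snf2hko, beside 725 of 865 (83.8%) in wild type. Over all 13130 genes, 22% were higher and 22.6% lower in Ino80ko and 28.7% and 28.2% in Snf2hko, and the 3 genotypes were read against their own vehicle.

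The size of the change still differed between genotypes for many genes. The difference from wild type was called for 1186 of 13130 genes (9.03%) in Ino80ko and 4281 (32.6%) in Snf2hko. The count for Ino80ko was 666 or 747 without DMSO replicate 1 or 2 of that line, 764 or 768 without its BRM014 replicate 1 or 2, and 697 without wild-type BRM014 replicate 3. The genotype differences are given for the 8 genes with the smallest adjusted p against both DMSO and analog. Inhbb stood at 43.9 and 43.1 CPM with BRM014 in Ino80ko and 41.1 and 42.4 CPM in Snf2hko, against 10.2 and 9.94 CPM in wild type. With DMSO it stood at 449 and 458 CPM in Ino80ko and 297 and 304 CPM in Snf2hko, against 245 and 230 CPM in wild type. Its fall was shallower by 1.18 ± 0.10 in Ino80ko and 1.72 ± 0.10 in Snf2hko. Tgm1 fell further in Snf2hko, to 6.94 and 6.64 CPM (difference -1.58 ± 0.12). Fgfbp1 rose less, with differences of -0.59 ± 0.13 in Ino80ko and -1.34 ± 0.14 in Snf2hko. For Ctsc, the lysosomal protease cathepsin C, which rose by 2.29 ± 0.07 in wild type, the difference was -1.74 ± 0.11 in Ino80ko and 1.24 ± 0.10 in Snf2hko. Lmo7, a junction protein gene that rose by 1.89 ± 0.06, rose less in Snf2hko (-1.16 ± 0.09), and Hmces, a guard of abasic sites that fell by 1.94 ± 0.07, fell less in Ino80ko (0.53 ± 0.09).

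Shorter treatments and washouts in batch 2450 place the 24 h levels in time. Means of 2 libraries are given, with vehicle at 1 h and 24 h only and no test. Inhbb stood at 314 CPM with DMSO at 1 h, and at 314, 245, 183 and 111 CPM after 30 min, 1 h, 3 h and 6 h of BRM014, before the 7.92 and 9.19 CPM of 24 h. Lefty1 stood at 47.4 CPM with DMSO at 1 h and at 43.0, 33.7, 19.8 and 11.2 CPM over the same times, so that its 6 h level was already close to the 11.6 and 14.4 CPM of 24 h. Itgb1 climbed over the series, at 439, 574 and 706 CPM after 1 h, 3 h and 6 h.

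Other rises came late. Coch stood at 15.3, 14.2, 15.0 and 17.3 CPM from 30 min to 6 h and Fgfbp1 at 31.4, 31.0, 26.8 and 26.8 CPM, near the 15.3 CPM of Coch and 30.3 CPM of Fgfbp1 with DMSO at 1 h, and only the 24 h libraries were above 100 CPM. Vcam1 stood at 0.365, 0.307, 0.582 and 0.663 CPM up to 6 h. Vehicle levels also moved with time, as Trh had 93.1 CPM with DMSO at 1 h and 212 and 181 CPM at 24 h.

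After 24 h of BRM014 and a washout, whose dose the labels do not give, the levels moved back towards vehicle, with Trh above it at 6 h and Fgfbp1 below it at 24 h of washout. Inhbb stood at 77.7 CPM after 6 h and 167 CPM after 24 h of washout. Coch stood at 61.1 and 22.1 CPM, Fgfbp1 at 66.1 and 11.7 CPM and Itgb1 at 485 and 413 CPM. Trh stood at 313 CPM after 6 h of washout, above both DMSO libraries of 24 h, and at 112 CPM after 24 h. No washed vehicle is among the groups, so the effect of medium change was not tested.

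**Figure D5:**
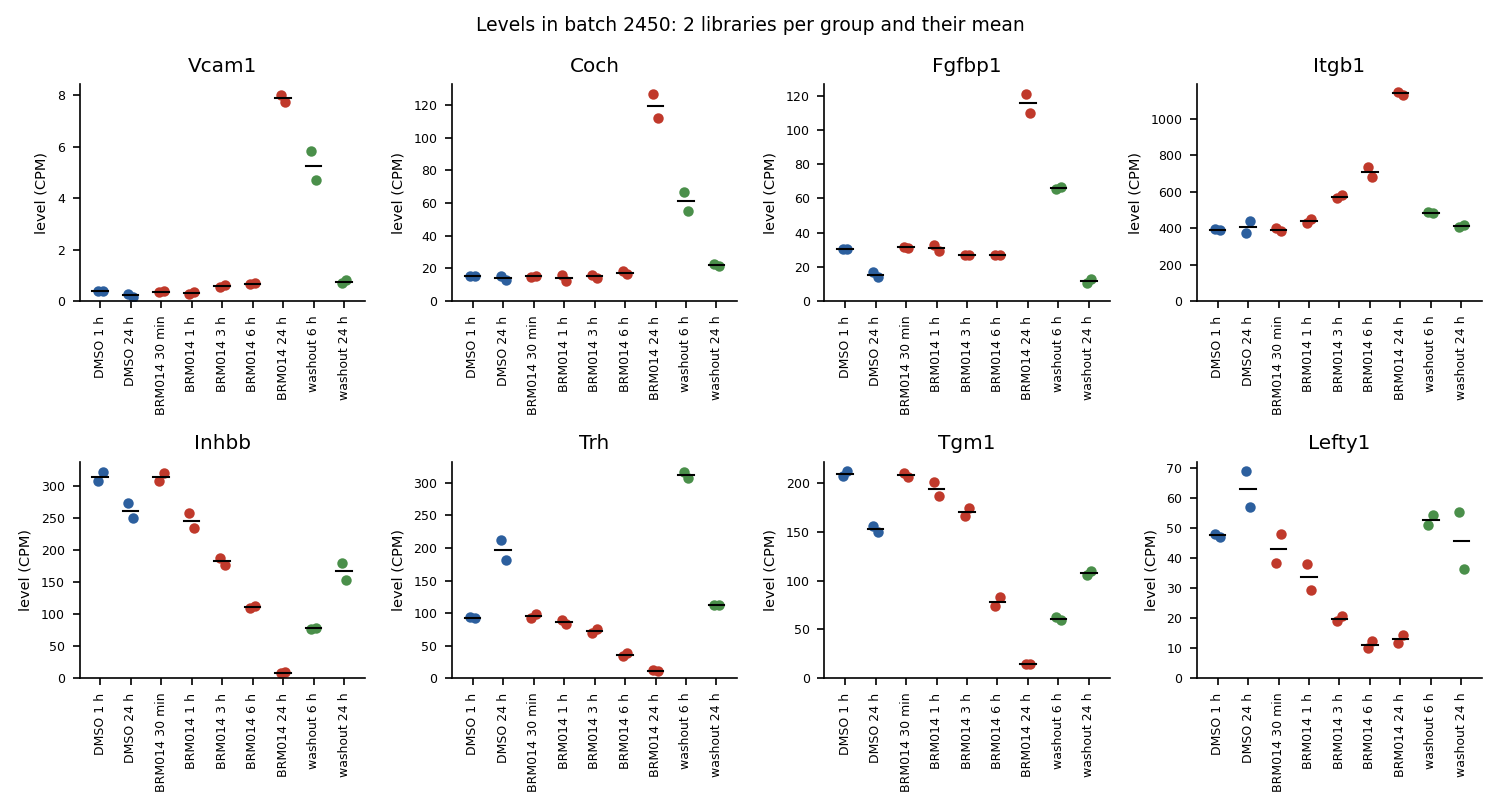
Level in each library of batch 2450 (CPM, vertical axis from 0) of 8 genes over DMSO at 1 h and 24 h, BRM014 from 30 min to 24 h, and washout for 6 h or 24 h following 24 h of BRM014, with a bar at the mean of 2 libraries. Inhbb and Tgm1 decline from 30 min to 24 h of BRM014 and Itgb1 climbs, Coch, Fgfbp1 and Vcam1 are high at 24 h and not at the shorter treatments, and Trh at 6 h of washout lies above every other group shown.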

How the data were processed

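The deposited file holds counts of reads per gene and library for 55385 genes, which the authors neither normalized nor filtered. Per the submitters' processing notes, bcl2fastq 2.17, STAR and mouse build GRCm38 (mm10) were used. How reads were counted, with which annotation and whether by strand, is not given in the sources used here. Of all genes, 32977 had 0 counts in every library, and such a 0 was read as no information. Rows without a symbol keep their gene identifiers and were tested; the library columns matched to no sample number 0.

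Genes were filtered with filterByExpr by group and batch (minimum count 10, minimum total 15), scaled by TMM and tested with edgeR 4.0.16 in R 4.3.3 (robust quasi-likelihood fit, Benjamini-Hochberg adjustment). The main fit held 8 libraries with batch as a term, 11787 genes, 5 residual degrees of freedom and a biological coefficient of variation of 9.16%. The median SE was 0.07 on the log2 scale for genes at a log2 CPM of 5 or more. Batch differences were an interaction in the same libraries, the analog was compared within all libraries of batch 2450, and genotype differences within the 12 libraries of batch 2457, where groups of 2 share the estimate of the spread. CPM levels use 1 TMM scaling over all 38 libraries. Replicates of 1 group and batch differed by more than counting error, with a chi-square per degree of freedom of 4.37 and 6.96 for BRM014 and 15.7 and 16.3 for DMSO. The fits were also run on simulated counts with no batch effect and a spread between replicates below 9.16%. That run is an easier setting and does not show how the fits perform on these data.

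Named genes were the 8 largest folds in each direction (mean log2 CPM of at least 2, libraries separated in each batch) and the 6 largest CPM differences of at least 2-fold. Up to 4 called members of a list or 3 of a symbol family (mean log2 CPM of at least 1), SWI/SNF subunits and the 4 clearest batch differences in each direction were added. So were, in each direction, the 4 genes with the smallest adjusted p against the analog among those called against both DMSO and analog. Predicted models were left out. A few genes that the rule names are not reported here. The members and lists were chosen with earlier results of these data known. Alternatives were DESeq2 1.42.0, upper-quartile scaling, no filter, no batch term, each batch alone, a replicate block, only the compared libraries, and leaving out each replicate. Gene positions and strand overlaps come from GENCODE M21, which matched 11784 of the genes tested, and promoter windows from RefSeq. Overlaps are mentioned for part of the genes only. Cdkn1c, Fbn2 and Smarca2 are among other named genes whose exons overlap a transcript on the other strand.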

Additional observations from a re-analysis of the deposited data

Results flagged for a closer look

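Single libraries that stood apart from the other 3 of their group were found in 12 of 298 groups of 4 (the BRM014 and the DMSO group of each of 149 named genes), where chance alone gives about 1 in 20. In BRM014 libraries these were Nodal at 178 CPM, Epha2 at 138 CPM, Bmp4 at 18.9 CPM, Fos at 8.99 CPM and Cdh5 at 1.08 CPM. In DMSO libraries they were Rrm2 at 452 CPM, Ccn2 at 177 CPM, Tcl1 at 56.4 CPM, Col13a1 at 17.6 CPM, Skor1 at 8.97 CPM, Wnt4 at 4.85 CPM and Id4 at 4.78 CPM. In each of these genes the groups still did not overlap. The 149 genes checked here and below leave out some genes given with values above. Among those left out are Trp53inp1, Phlda3, Ccng1, Eda2r, Mdm2, Bbc3, Zmat3, Dsp and Sox7.

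The BRM014 effect differed between batches for 25 of the 148 genes of this set that were tested, by the edgeR interaction test over all genes, against 3.46% of all genes. The named genes were partly chosen for such a difference. More positive in batch 2457 (log2, batch 2457 minus batch 2450) were Trp73 at 2.13, Plk2 at 1.56, Ak1 at 1.45, Btg2 at 1.43, Inpp5d at 1.19, Ptprv at 0.92, Serpinb6c at 0.90, Trh at 0.77, Atf3 at 0.70, Apoe at 0.66, Gata6 at 0.59 and Fgf4 at 0.53. More negative were Thbs2 at -2.49, Trim43b at -1.90, Pim2 at -1.33, Brpf3 at -1.28, Cdkn1c at -1.21, Hnrnpd at -0.98, Zic2 at -0.94, Vgll3 at -0.93, Col13a1 at -0.82, Car2 at -0.67, Pim1 at -0.55, Itga3 at -0.50 and Ccn2 at -0.47. Of the 4 p53 targets in this list, Trp73, Plk2, Btg2 and Ptprv, each had its higher DMSO level in batch 2450. The p53 targets Trp53inp1, Phlda3, Ccng1, Eda2r and Mdm2, whose changes in each batch are given above, were outside the set. The part of culture or handling in these differences was not tested.

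For the 8 genes called against both DMSO and analog and ranked by adjusted p against the analog, 13 genotype differences were called (log2, line minus wild type of batch 2457). Ino80ko differed for Trh at 1.44, Inhbb at 1.18, Hmces at 0.53, Car2 at -0.57, Fgfbp1 at -0.59 and Ctsc at -1.74. Snf2hko differed for Inhbb at 1.72, Ctsc at 1.24, Hmces at -0.38, Car2 at -0.81, Lmo7 at -1.16, Fgfbp1 at -1.34 and Tgm1 at -1.58.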

How the results depend on the processing

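Counts of genes called between BRM014 and DMSO stayed within 1.5 times of 5842 under every alternative run: 5746 with DESeq2, 5872 with upper-quartile scaling, 6155 without a filter, 5056 without a batch term, 4591 and 5188 in batches 2450 and 2457 alone, and 5122 to 5667 without 1 replicate. Upper-quartile scaling split its calls into 2613 higher and 3259 lower. Rises of at least 2-fold numbered 554 to 687 and falls 888 to 1125. Against the analog, 4436 calls became 3157 to 3723 without 1 replicate, and for Snf2hko 4281 became 3211 to 4467. Calls of the batch difference (408) depended most on the processing: 632 without a filter and 106 to 715 without 1 replicate; for Ino80ko 1186 became 666 to 1150. Of 2220 values for 148 of the named genes, 2200 kept their direction and side of the threshold. Genes outside the 148 were not followed in this way, and of these Ccng1 and Phlda3 fell in batch 2450 (-1.02 and -1.14) and not in batch 2457 (0.06 and 0.04). Sign changes among the 148 were Smarca2 without DMSO replicate 2 (0.01, range without 1 replicate -0.17 to 0.01), Plk2 in batch 2457 (0.13), Pim2, Brpf3 and Hnrnpd in batch 2450 (0.44, 0.57 and 0.27), and Brpf3 without replicate 3 or 4 of either group (up to 0.08, range -0.32 to 0.08). Calls lost were Smarcd1 and Smarcd2 in batch 2450 (-0.15 and -0.23) and Cubn without a batch term (-0.97). Calls gained were Btg2 with DESeq2 (-0.81), without a batch term (-0.85) and in batch 2450 (-1.52), Plk2 in batch 2450 (-1.44), and Pim2, Brpf3 and Hnrnpd in batch 2457 (-0.89, -0.71 and -0.71). The causes were not tested. The deviations of same-numbered libraries of both groups had a correlation of 0.0659 in batch 2450 and 0.0389 in batch 2457. With 2 libraries per group and batch each value is 1 contrast, and a low one cannot show that nothing was shared. What a replicate number shares is not given in the labels. A replicate block gave 5528 calls between BRM014 and DMSO, 810 for the batch difference and 4461 against the analog, and ended the call of Inpp5d (-1.27, adjusted p = 0.0536). With 4 libraries a group, changes of genes under about 1 CPM rest on few counts.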
